A study of Mus musculus with 10 samples.

Results

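Myelin of the central nervous system is the multilayered membrane that oligodendrocytes wrap around axons, and 9 genes whose products build or bind this membrane in mature oligodendrocytes were followed here in the lumbar spinal cord: Mbp, Mog, Mag, Mobp, Cnp, Cldn11, Mal, Opalin and Ugt8a. They were chosen by gene symbol. All 9 were among the 24411 genes listed, and all 9 passed the filter on low counts that left 13287 genes for testing. The libraries came from mice treated with paclitaxel, a cancer drug that stabilises microtubules and can cause painful neuropathy, or treated with vehicle, with 5 libraries in each group. The sources used here do not give strain, sex, age, dose, schedule or time of collection, and do not say whether each library was a separate animal. A p-value below therefore reflects the spread among these 10 libraries, which may be technical.

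Oligodendrocytes lay down myelin by spreading their membrane, filling it with cholesterol and galactolipids, and pressing its layers together. Mbp, the basic protein that holds the inner faces of the membrane together, is carried at a very high mRNA level in white matter. The spinal cord is rich in long myelinated tracts, and loss of myelin gene expression is a usual sign of damage to oligodendrocytes. The comparison of the groups asks whether mRNA of these genes differed after paclitaxel.

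Sequence just before the start sites is shown first, for the members lowest in 1 library in the results below (Ugt8a, Opalin, Mag, Cnp and Mog) and for those highest there (Mobp and Cldn11). Of the 9 members, 8 matched an entry of the RefSeq promoter table (GRCm38.p6, the assembly that mm10 names), with 10 windows of 300 bases in all, 250 before and 50 after a start site. Mbp had no entry. These windows were searched on both strands for CTGGCAC or CTGGTAC, the core bound by Myrf, a transcription factor that switches on myelin genes, and for ACAAAG, a core bound by Sox factors such as Sox10. The Myrf core was found for Mag, Cnp, Mog and Opalin, in 5 of 10 windows, and in 7.10% of 32851 windows of all genes. The Sox core was found for Mag, Cnp, Mobp and Opalin, in 5 of 10 windows, against 18.7% of all windows. Searched as well were the E-box CAGCTG, found in 1 of 10 windows against 16.3% of all, and the TATA box TATAAA, found in 0 of 10 against 13.6%. These 2 motifs are not marked below. Mag counts for 2 of the 5 windows in each case, through overlapping windows that hold the same single sites, and the third Mag window holds neither core. For Ugt8a, Mag, Cnp, Mog, Mobp and Cldn11 the 250 bases before the start site are printed, from chr3:125938653-125938902 (minus strand), chr7:30914864-30915113 (minus), chr11:100574689-100574938 (plus), chr17:37023399-37023648 (minus), chr9:120149492-120149741 (plus) and chr3:31149670-31149919 (plus). For Opalin the 26 bases around its Myrf core, which lies behind the start site, are printed from chr19:41077064-41077089 (minus). Capitals mark the Myrf and Sox cores, and the letters run from 5′ to 3′ on the strand of the gene. No Sox core of Opalin is marked, since each lies outside the 26 bases or loses its first letter at their start.
Ugt8a: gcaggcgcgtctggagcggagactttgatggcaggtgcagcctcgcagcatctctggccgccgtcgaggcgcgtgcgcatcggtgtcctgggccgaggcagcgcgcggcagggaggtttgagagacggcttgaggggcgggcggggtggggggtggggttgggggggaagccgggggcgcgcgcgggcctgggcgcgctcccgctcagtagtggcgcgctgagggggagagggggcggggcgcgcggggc
Mag: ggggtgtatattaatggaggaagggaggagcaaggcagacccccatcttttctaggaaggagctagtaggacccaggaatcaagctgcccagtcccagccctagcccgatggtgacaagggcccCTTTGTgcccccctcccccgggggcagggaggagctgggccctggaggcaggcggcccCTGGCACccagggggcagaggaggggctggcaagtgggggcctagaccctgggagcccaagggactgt
Cnp: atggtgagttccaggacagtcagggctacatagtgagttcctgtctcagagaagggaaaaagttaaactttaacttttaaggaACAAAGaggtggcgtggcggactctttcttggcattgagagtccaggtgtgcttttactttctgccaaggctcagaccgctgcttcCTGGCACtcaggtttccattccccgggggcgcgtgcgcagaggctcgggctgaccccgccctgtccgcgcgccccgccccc
Mog: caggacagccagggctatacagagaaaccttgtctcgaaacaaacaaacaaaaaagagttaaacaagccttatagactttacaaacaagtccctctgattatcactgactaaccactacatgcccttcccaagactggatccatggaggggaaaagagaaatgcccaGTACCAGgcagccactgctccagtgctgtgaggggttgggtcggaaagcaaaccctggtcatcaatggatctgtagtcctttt
Opalin: caaagacctgcaGTGCCAGtgagaga
Mobp: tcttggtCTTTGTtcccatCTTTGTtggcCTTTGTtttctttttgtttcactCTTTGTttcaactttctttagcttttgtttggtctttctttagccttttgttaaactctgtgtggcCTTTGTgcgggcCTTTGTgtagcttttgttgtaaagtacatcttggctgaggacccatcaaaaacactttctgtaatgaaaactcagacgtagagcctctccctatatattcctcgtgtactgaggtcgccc
Cldn11: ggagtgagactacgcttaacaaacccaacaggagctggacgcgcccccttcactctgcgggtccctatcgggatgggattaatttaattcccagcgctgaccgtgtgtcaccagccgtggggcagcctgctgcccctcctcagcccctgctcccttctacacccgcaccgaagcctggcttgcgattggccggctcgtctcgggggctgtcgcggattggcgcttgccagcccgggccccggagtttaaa
The Mobp window held the Sox core 6 times and the Ugt8a and Cldn11 windows held neither core. A match is a description of letters and not evidence of binding.

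Across the libraries, total gene counts ran from 3676259 to 7791594, and levels are given as CPM, counts scaled for depth with TMM factors, on which 3 counts equal 0.385 to 0.819 CPM. All 12 neuronal and all 12 astrocytic marker genes of the lists used here passed the filter and were tested. Genes of peripheral myelin were mixed. Egr2, a transcription factor of Schwann cells, never exceeded 2 counts and was at 0 in 5 libraries, and Prx had 2 to 6 counts. Pmp22, named after its values were seen, had 317 to 724 counts and Drp2 had 189 to 410. Of 13 peripheral myelin genes 7 were tested, and their summed level ran from 167 to 205 CPM with paclitaxel and from 162 to 201 CPM with vehicle. Most of this sum came from Pmp22 and Drp2. The library of paclitaxel replicate 3 stood apart. Its chi-square per degree of freedom against the other paclitaxel libraries was 4.84 to 6.55, against 1.59 to 4.33 for the other 16 pairs within a group. For that reason every member is given with and without it.

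Levels of the members spanned a wide range. Mbp had the highest mean CPM of all 13287 tested genes and the 9 members together took between 1.60% and 1.80% of all counts in a library. Per kb of transcript (mean length of the GENCODE M21 transcripts matched to the listed RefSeq accessions), the vehicle level of Mbp was 5833 ± 232 CPM per kb (SD, n = 5). On the same scale Cnp followed at 390 ± 23.0, Mobp at 345 ± 27.1, Mal at 336 ± 21.3 and Mag at 301 ± 13.6 CPM per kb (SD, n = 5 each). The order of Cnp, Mobp, Mal and Mag is not settled by these values, because neighbours lay within about the spread of libraries and because Mal could stand anywhere from 198 to 1129 CPM per kb depending on whether its longest or shortest transcript was read. The levels of the remaining members were separated from each other by more than their spread, although Mal at its lowest reading of 198 CPM per kb would stand beside Cldn11. Cldn11 was at 202 ± 7.01, Mog at 117 ± 7.35, Ugt8a at 61.5 ± 8.0 and Opalin at 20.2 ± 2.77 CPM per kb (SD, n = 5 each).

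**Figure D1:**
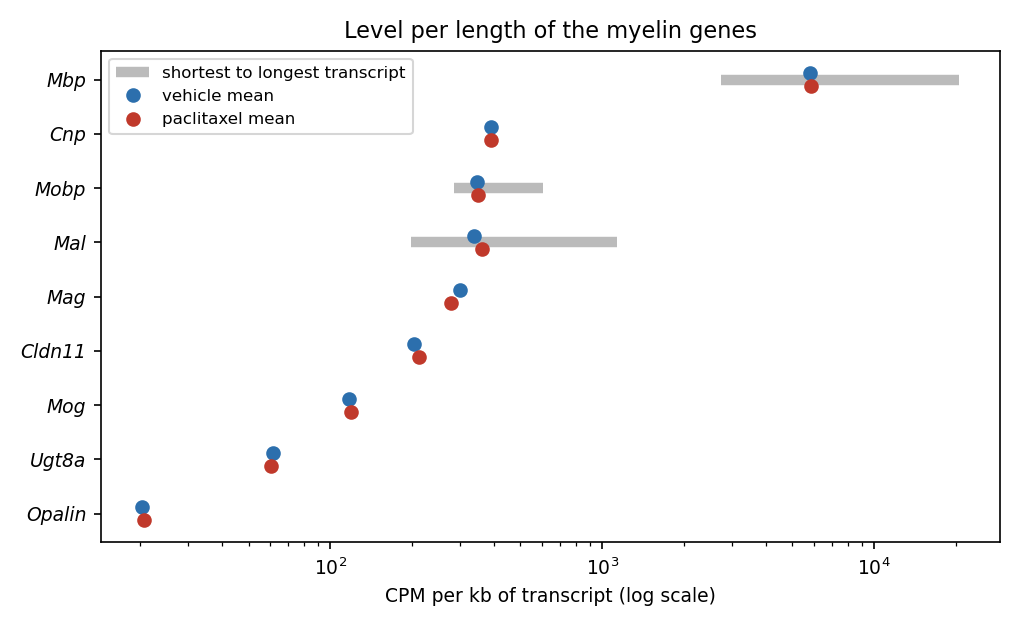
Level per kb of transcript of the 9 myelin genes on a log axis, with the vehicle mean (blue) and the paclitaxel mean (red), and in grey the vehicle mean computed with the shortest and the longest matched transcript. Mbp stands highest at 5833 CPM per kb with vehicle and Opalin lowest at 20.2, and the group means of each gene lie close together.

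Between the groups no member passed. Called at 0.05 after adjustment were 0 of 9 members (quasi-likelihood test of edgeR), where 0% of all tested genes were called. An unadjusted p under 0.05 was reached by 0 of 9 members, where 6.07% of all tested genes reached it, 2.94% with a higher and 3.12% with a lower paclitaxel level. In the same fit 7 members were higher and 2 lower with paclitaxel, where 49.1% of all tested genes were higher, with a median log2 fold change of 0.01 against -0.003 over all tested genes. The median size of the change, without its sign, was 0.03 for the members and 0.08 for all tested genes. Paclitaxel and vehicle libraries overlapped for all 9 members, while 1.09% of all tested genes had groups that did not overlap. In whole tissue, fewer oligodendrocytes and less mRNA per oligodendrocyte cannot be told apart.

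Among the proteins of compact myelin, Mbp was the steadiest over all 10 libraries. It stood at 13028, 13374, 13663, 12270 and 13166 CPM in vehicle replicates 1 to 5 and at 12861, 12827, 12486, 14057 and 13633 CPM in paclitaxel replicates 1 to 5. The lowest library was vehicle replicate 4 and the highest paclitaxel replicate 4, and the groups overlapped almost fully. The vehicle mean was 13100 ± 522 CPM and the paclitaxel mean 13173 ± 648 CPM (SD, n = 5 each). Their ratio was 1.01-fold, with 95% limits of 0.946 and 1.07 (log2 fold change 0.008, SE 0.04; edgeR adjusted p = 0.987). Without paclitaxel replicate 3 it was 1.02-fold (0.967 to 1.08).

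Mobp encodes a small basic protein that, like Mbp, lies between the inner membrane faces. Its levels were 824, 993, 935, 906 and 1006 CPM with vehicle and 983, 921, 1022, 874 and 927 CPM with paclitaxel, in replicate order. Paclitaxel replicate 3 was the highest of all 10 libraries and vehicle replicate 1 the lowest. The ratio was 1.01-fold (95% interval 0.937 to 1.10), and without paclitaxel replicate 3 it was 0.994-fold (0.926 to 1.07).

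Mal, a raft protein that sorts membrane to myelin, had the lowest p of the members. With vehicle it was at 546, 601, 506, 537 and 555 CPM, and with paclitaxel at 647, 553, 635, 549 and 565 CPM. Paclitaxel replicates 1 and 3 were the highest libraries, and the other paclitaxel libraries lay below vehicle replicate 2, so that the groups overlapped. Means were 549 ± 34.7 CPM for vehicle and 590 ± 47.2 CPM for paclitaxel (SD, n = 5 each), and the log2 fold change was 0.10 (SE 0.06), or 1.07-fold (95% interval 0.991 to 1.16). It did not pass (edgeR unadjusted p = 0.0786, adjusted p = 0.800), and a two-sided exact permutation test of Mal alone gave p = 0.151 (0.00794 is the lowest that 5 against 5 libraries allow). Without paclitaxel replicate 3 the log2 fold change of Mal was 0.08 (SE 0.05).

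Cldn11 encodes the claudin that forms the tight junctions of central myelin. It stood at 373, 398, 366, 385 and 370 CPM with vehicle and at 367, 369, 451, 382 and 404 CPM with paclitaxel. Only paclitaxel replicates 3 and 5 lay above the highest vehicle library. The ratio of 1.04-fold (95% interval 0.964 to 1.13) became 1.01-fold (0.943 to 1.08) without paclitaxel replicate 3.

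Over all 10 libraries the members of the inner and outer myelin surface varied more, with their lowest values in paclitaxel replicate 3. Without that library, the SD over the other 9 was 4.90% of the mean for Mag, 6.35% for Cnp and 6.52% for Mog. It was 4.07% for Mbp, 3.71% for Cldn11, 6.32% for Mobp and 7.20% for Mal, so the larger spread came from that library. Mag, the adhesion molecule that faces the axon, was at 716, 756, 776, 694 and 718 CPM with vehicle and at 725, 787, 484, 700.1 and 689 CPM with paclitaxel. The value of 484 CPM lay far below the other 9 libraries, which ran from 689 to 787 CPM and overlapped between the groups. The log2 fold change was -0.11 (SE 0.11; edgeR adjusted p = 0.872) with all libraries and -0.01 (SE 0.05; edgeR adjusted p = 0.993) without that library.

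Cnp, a phosphodiesterase of the uncompacted cytoplasmic channels of myelin, showed the same library at the bottom. Its vehicle levels were 953, 977, 934, 844 and 883 CPM, and its paclitaxel levels 1053, 945, 675, 989 and 945 CPM. Paclitaxel replicates 1 and 3 held the highest and the lowest value, on either side of all vehicle libraries. The ratio was 1.00-fold (95% interval 0.855 to 1.18) with all libraries and 1.07-fold (1.00 to 1.14) without paclitaxel replicate 3. Mog, an immunoglobulin protein on the outermost myelin surface and a known target of autoimmunity, was at 211, 205, 204, 179 and 198 CPM with vehicle and at 224, 207, 157, 207 and 223 CPM with paclitaxel. Paclitaxel replicate 3 was lowest and replicates 1 and 5 highest, with the vehicle libraries between. Its ratio was 1.02-fold (0.907 to 1.15) with all libraries and 1.08-fold (1.00 to 1.17) without that library.

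Opalin encodes a sialylated membrane protein found in mature oligodendrocytes, and was the least abundant member, with 107 to 284 counts per library. It was at 41.9, 43.0, 32.3, 32.3 and 36.4 CPM with vehicle and at 49.9, 37.9, 22.7, 42.0 and 36.7 CPM with paclitaxel. Paclitaxel replicates 1 and 3 held the highest and the lowest value of all libraries, and the 95% interval of the ratio was correspondingly wide, from 0.773 to 1.31. The log2 fold change of Opalin was 0.01 (SE 0.17) with all libraries and 0.15 (SE 0.10) without paclitaxel replicate 3.

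Ugt8a, the enzyme that adds galactose to ceramide and so makes the main galactolipid of myelin, varied most over all libraries. Without paclitaxel replicate 3, Opalin varied most, with an SD of 14.4% of the mean against 12.05% for Ugt8a. Vehicle libraries were at 277, 243, 213, 214 and 204 CPM and paclitaxel libraries at 268, 270, 117, 259 and 216 CPM. Apart from the value of 117 CPM the groups overlapped fully. The vehicle mean was 230 ± 29.9 CPM and the paclitaxel mean 226 ± 64.7 CPM (SD, n = 5 each), and the latter became 253 ± 25.4 CPM (SD, n = 4) without paclitaxel replicate 3. The log2 fold change changed sign with that library left out, from -0.03 (SE 0.22) to 0.14 (SE 0.10), and did not pass either way (edgeR adjusted p = 0.992 and 0.978).

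**Figure D2:**
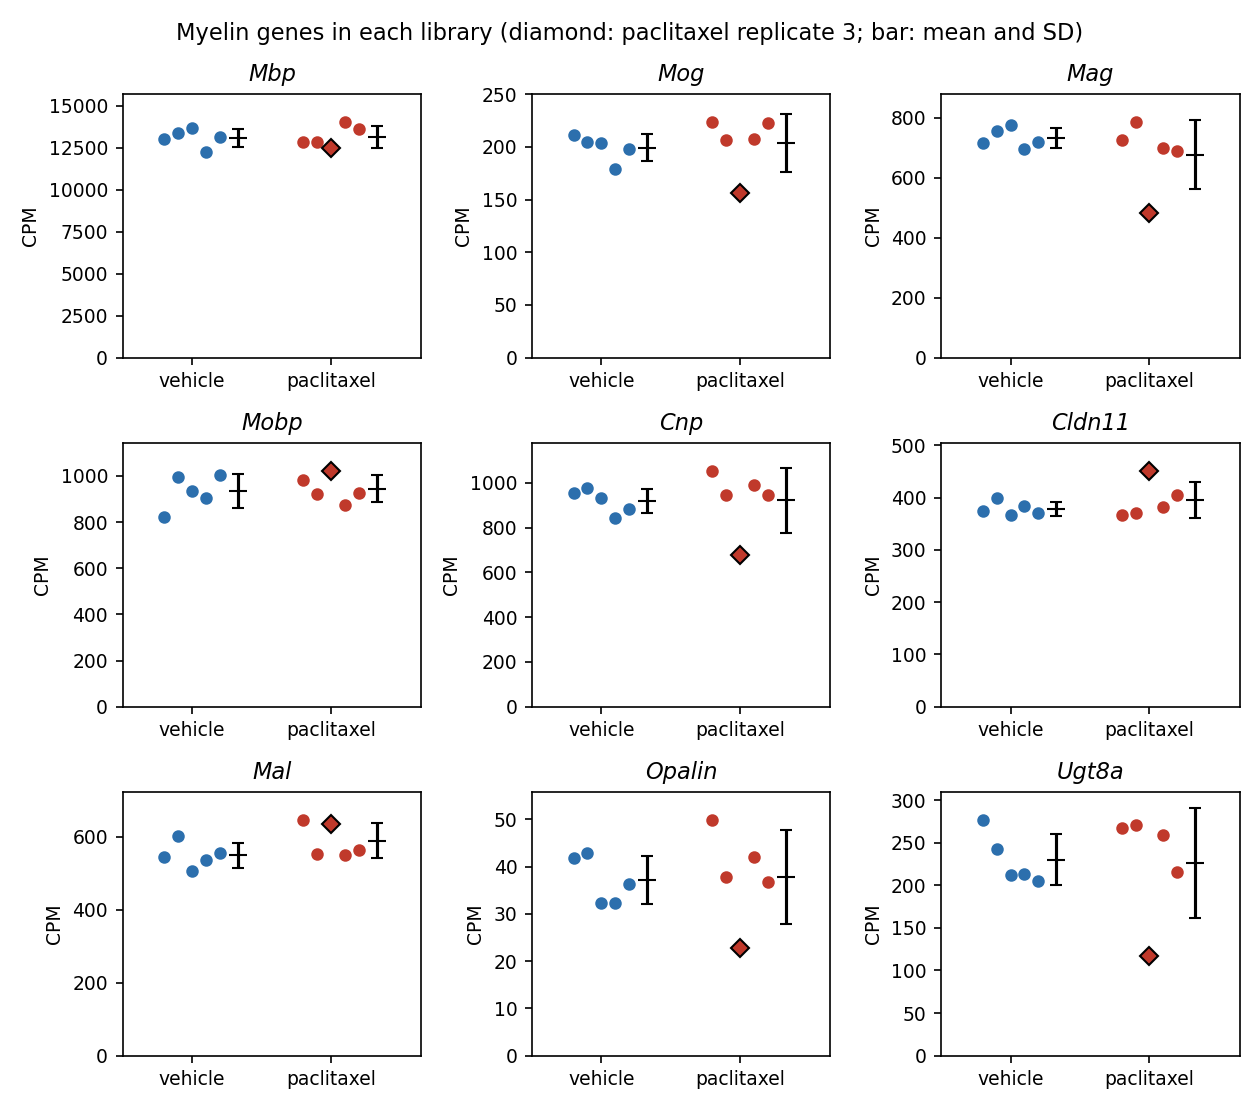
CPM of each of the 9 myelin genes in every library, with vehicle in blue and paclitaxel in red, and the mean with its SD beside each group. The diamond marks paclitaxel replicate 3, which lies lowest for Mog, Mag, Cnp, Opalin and Ugt8a and highest for Mobp and Cldn11.

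Without paclitaxel replicate 3 the members still did not pass over all genes. Then 7 were higher and 2 lower, with a median log2 fold change of 0.08 against -0.001 over all 13470 genes tested. Unadjusted p-values under 0.05 were reached by 2 of 9 members, Cnp (edgeR unadjusted p = 0.0381, adjusted p = 0.972) and Mog (0.0476 and 0.972), where 4.81% of all genes reached it. Over all 126 assignments of the 9 libraries, a two-sided exact permutation test gave p = 0.111 for Cnp and 0.0794 for Mog. Over the members the interval ends then ran from 0.926-fold to 1.29-fold, compared with 0.689-fold to 1.40-fold over all libraries. For both Cnp and Mog, paclitaxel replicate 3 was the lowest paclitaxel library and vehicle replicate 4 the lowest vehicle library. Leaving out only the former raised the paclitaxel mean alone. With vehicle replicate 4 left out as well, the log2 fold change fell from 0.10 to 0.07 (SE 0.05) for Cnp. For Mog it fell from 0.11 to 0.07 (SE 0.05). Neither gene reached the unadjusted cut-off of edgeR in that setting, which was chosen after seeing the data.

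**Figure D3:**
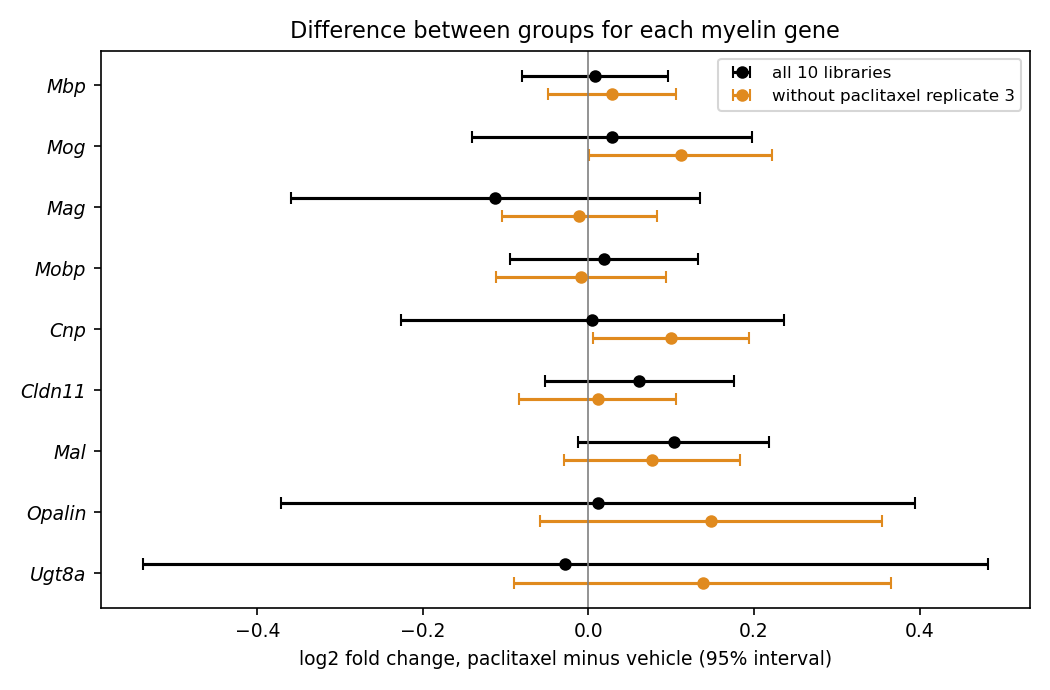
Log2 fold change of each myelin gene, paclitaxel minus vehicle, with its 95% interval from edgeR, for all 10 libraries (black) and without paclitaxel replicate 3 (orange). The intervals of Mag, Cnp, Opalin and Ugt8a narrow when that library is left out, for Ugt8a from a range of -0.54 to 0.48 to a range of -0.09 to 0.37.

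The library that stood apart divided the members. Paclitaxel replicate 3 was the lowest of the 10 libraries for 5 of 9 members and the highest for 2 of 9, while it was lowest for 20% and highest for 19.7% of all tested genes. Relative to the mean log2 CPM of the other 9 libraries, Ugt8a stood at 0.491-fold, Opalin at 0.589-fold, Mag at 0.664-fold, Cnp at 0.715-fold and Mog at 0.761-fold. Mbp stood at 0.946-fold, within the range of the other libraries. On the other side Mobp stood at 1.10-fold, Mal at 1.13-fold and Cldn11 at 1.19-fold. The split was noticed in these values and is given as a description, without a test.

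Ratios of counts within a library do not depend on how libraries are scaled. The pairs given were picked after the split was seen, each with a member low in paclitaxel replicate 3 as its second gene, so that a high ratio there follows from the choice and only its size is described. The ratio of Cldn11 to Ugt8a counts was 3.86 in paclitaxel replicate 3 and between 1.35 and 1.88 in the other 9 libraries. Mal to Mag was 1.31 there and 0.652 to 0.892 elsewhere, and Mobp to Cnp was 1.51 there and 0.864 to 1.14 elsewhere. Mbp to Mag was 25.8 in that library and 16.3 to 20.1 in the others.

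**Figure D4:**
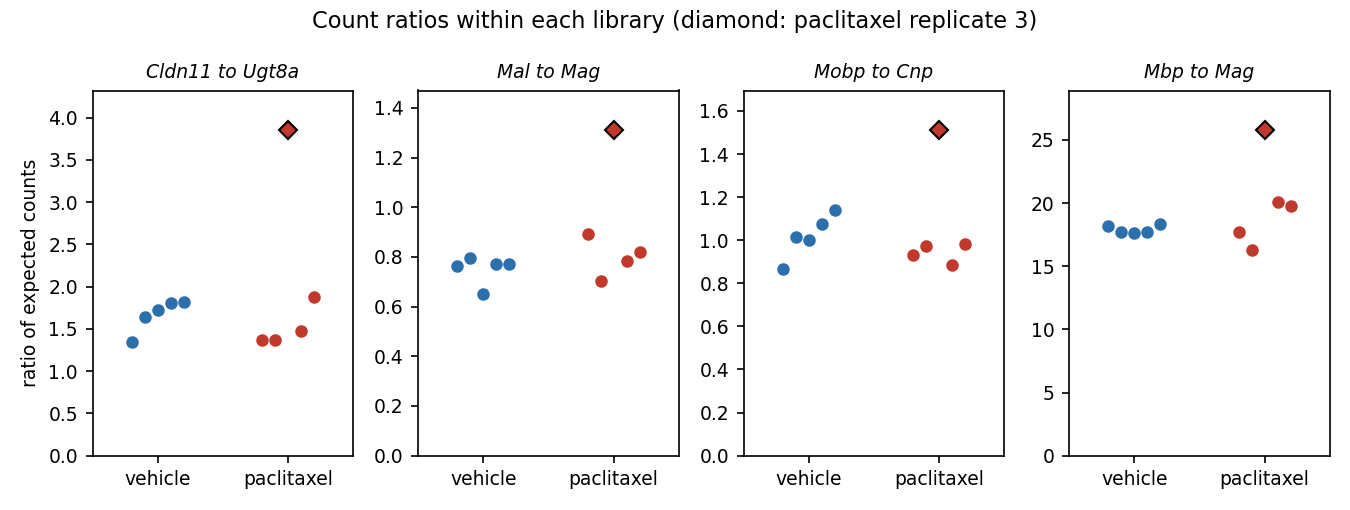
Ratio of expected counts of pairs of myelin genes within each library, with vehicle in blue, paclitaxel in red and paclitaxel replicate 3 as a diamond. The diamond lies above the other 9 libraries in each panel, at 3.86 for Cldn11 to Ugt8a against at most 1.88 elsewhere.

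Other values of the same library moved with this split. Among 31 other genes of mature oligodendrocytes it was lowest for 23 and highest for 4, where it was lowest for 20% and highest for 19.7% of all tested genes. The median of these 31 genes stood 0.51 below the other libraries on the log2 scale. The transferrin gene Trf was at 0.523-fold and Gal3st1, which turns the product of Ugt8a into sulfatide, at 0.509-fold of the other 9 libraries. Tspan2 at 1.44-fold and the apolipoprotein gene Apod at 1.94-fold were among the 4 on the other side. These genes were singled out after their values were seen. In the same library 16 of 19 cholesterol synthesis genes, a list added after seeing the data, were lowest, and a set of 6 glucocorticoid response genes, picked in earlier work on these libraries for varying between them, summed to 842 CPM against 92.8 to 375 CPM in the others. The part of any of these in the members' values was not tested.

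Transcription factors of the lineage were low in that library in part. Of 11 tested, it was lowest for 5 and highest for 0, where it was lowest for 20% and highest for 19.7% of all tested genes. Nkx2-2 was at 0.467-fold and Tcf7l2 at 1.43-fold of the other 9 libraries, both named after their values were seen. Sox10 was at 78.5 CPM against 115 to 169 CPM in the other 9 libraries, while Myrf was at 219 CPM against 220 to 247 CPM. The 4 members with a Myrf core in the windows above, Mag, Cnp, Mog and Opalin, were among the 5 that were lowest in this library, and Ugt8a, with the lowest relative value, held neither core. Of the 4 members with a Sox core, Mag, Cnp and Opalin were lowest there and Mobp was highest. With so few genes, chosen after the split was seen, nothing is read from this.

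Markers of other cell types were mixed in paclitaxel replicate 3, which was lowest for 20% and highest for 19.7% of all tested genes. The summed level of 12 endothelial genes was 407 CPM against 418 to 515 CPM elsewhere, with 7 of the 12 lowest there and 0 highest. That of 12 microglial genes, at 314 CPM, lay just below the 317 to 417 CPM of the others, with 4 lowest and 0 highest. The sum of 12 neuronal genes was 11846 CPM against 14077 to 15237 CPM. The neuronal sum was carried by the neurofilament genes Nefl, Nefm and Nefh, at 0.724-fold, 0.740-fold and 0.707-fold of the other libraries. Of the 12 neuronal genes 7 were lowest there and 2, Syt1 at 1.24-fold and Elavl4 at 1.20-fold, highest. Astrocytic genes went both ways, with 4 of 12 lowest and 5 highest, among them Agt at 2.04-fold and Aqp4 at 0.708-fold, while their sum of 6495 CPM lay within the 6123 to 6845 CPM of the others. Adjusting for GC and transcript length left the order of the extremes, with Ugt8a at 0.437-fold and Cldn11 at 1.22-fold of the other libraries, and moved Mag to 0.726-fold, Cnp to 0.772-fold and Mbp to 1.02-fold. The 8 tested genes of meninges and fibroblasts had a median 0.30 below the other libraries on the log2 scale in paclitaxel replicate 3, although their sum was 917 CPM, most of it from Ptgds at 2.09-fold of the others. These single markers were named after their values were seen. In vehicle replicate 4 the same 8 genes summed to 818 CPM, against 425 to 519 CPM in the other vehicle libraries. In vehicle replicate 4, Mbp, Mog, Mag, Cnp and Opalin were at the lowest values of the vehicle group. Opalin was at 32.3 CPM in both vehicle replicates 3 and 4. Whether these sums bear on the members' values was not tested.

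**Figure D5:**
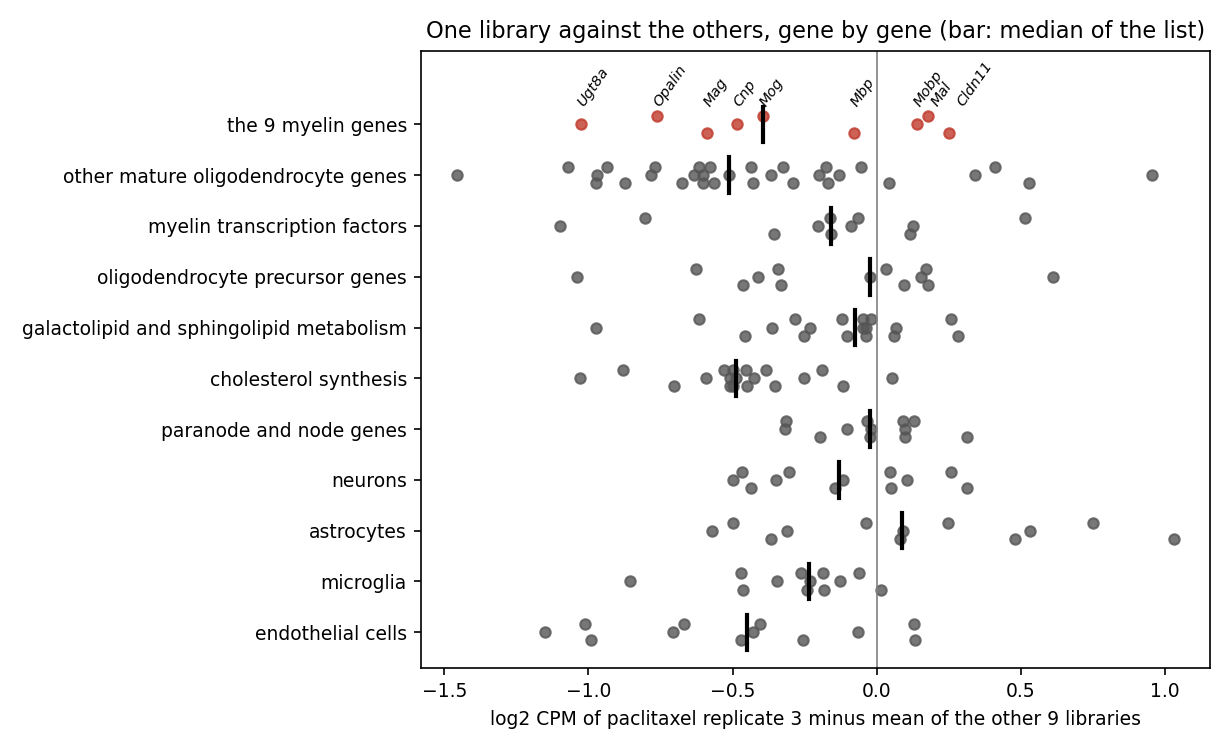
Log2 CPM of paclitaxel replicate 3 minus the mean of the other 9 libraries for each gene (points) of the 9 myelin genes (red) and of other lists (grey), with the median of each list as a bar. The myelin genes spread from -1.03 for Ugt8a to 0.25 for Cldn11, and the median of the other mature oligodendrocyte genes is -0.51.

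Over all 10 libraries the members did not vary as a unit. Pairs were grouped by whether both, neither or only 1 of the genes was lowest in paclitaxel replicate 3, so the r over all libraries is in part set by the grouping. For the 10 pairs among Mog, Mag, Cnp, Opalin and Ugt8a, Pearson's r of log2 CPM across the 10 libraries had a median of 0.87 and ran from 0.73 to 0.95. For the 6 pairs among Mbp, Mobp, Cldn11 and Mal the median was 0.09, and for the 20 mixed pairs it was -0.33. Without paclitaxel replicate 3 the medians over 9 libraries were 0.54, 0.09 and 0.05, with ranges of -0.05 to 0.86, -0.15 to 0.47 and -0.44 to 0.84. The highest pairs that remained were Cnp with Opalin at 0.86, Mal with Opalin at 0.84 and Cnp with Mog at 0.83. These are descriptions over libraries that share depth and scaling. Over all 10 libraries the spread within groups, as an SD of log2 CPM, was 0.06 for Mbp. It was between 0.09 and 0.10 for Cldn11, Mobp and Mal, 0.16 for Mog, 0.19 for Cnp and 0.20 for Mag. Opalin was at 0.33 and Ugt8a at 0.38. The median over the 5743 genes at least as abundant as Opalin was 0.11, also over all 10 libraries. This order depended on paclitaxel replicate 3. Without it, the SD over 9 libraries was 4.90% of the mean for Mag, 6.35% for Cnp and 6.52% for Mog. Mobp was then at 6.32%, Mal at 7.20%, Ugt8a at 12.05% and Opalin at 14.4%, while Mbp at 4.07% and Cldn11 at 3.71% stayed lowest.

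Of 13278 other genes with a mean of at least 1 CPM, those most like the mean of the members over the 10 libraries were Map6d1 (Pearson's r = 0.96), Tmem88b (0.96), Pltp (0.96), Frmd8 (0.96), Trf (0.95), Tpst1 (0.95), Arsg (0.94), Trp53inp2 (0.94), Serinc5 (0.94) and Ninl (0.94). All 10 were lowest in paclitaxel replicate 3, and without that library their r ran from 0.79 to 0.93. Least like it were Gm15417 (-0.96), Socs6 (-0.95), Chd3os (-0.95), Rps18 (-0.95) and Cdkn1a (-0.94), with the limit that ribosomal protein genes such as Rps18 have many near-identical pseudogenes. These genes were picked for their r, so no p is given.

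The wider oligodendrocyte programme did not differ between the groups over all genes either. Of 31 other mature oligodendrocyte genes 15 were higher and 16 lower with paclitaxel, with a median log2 fold change of -0.04, and 0 were called after adjustment in edgeR. Unadjusted p-values under 0.05 were reached by 2, both higher: Tspan2, a tetraspanin of early myelin, at 0.27 (SE 0.09) and Anln at 0.17 (SE 0.08). Without paclitaxel replicate 3, which held the highest value of both, they were at 0.17 and 0.09. Apod was at 0.32 (SE 0.20) and at 0.08 without that library, and Gjc3 at 0.10 (SE 0.07). The median of the list was 0.07 without that library.

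Of 11 tested lineage transcription factors 6 were higher and 5 lower, with 0 under an unadjusted p of 0.05 in edgeR. For Sox10, which is needed for myelin gene transcription, the log2 fold change was -0.24 (SE 0.17), and -0.11 without paclitaxel replicate 3. Olig2 was at 0.02 (SE 0.09) and Myrf at 0.003 (SE 0.05), where Myrf was named after its values were seen. Of 13 tested genes of oligodendrocyte precursors and newly formed cells, 8 were higher and 5 lower with a median of 0.05. The 4 under an unadjusted p of 0.05 in edgeR were all higher, where 2.94% of all tested genes were, and 0 passed after adjustment: Neu4 at 0.29 (SE 0.12), the matrix gene Vcan at 0.25 (SE 0.11), the phosphatase gene Ptprz1 at 0.13 (SE 0.06) and Pdgfra, the growth factor receptor that marks precursors, at 0.16 (SE 0.07). Without paclitaxel replicate 3, Neu4 was at 0.30 and kept an unadjusted p under 0.05 in edgeR (0.0228). The other genes no longer had one, with Vcan at 0.13 (SE 0.09), Ptprz1 at 0.11 (SE 0.06) and Pdgfra at 0.14 (SE 0.07).

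Around Ugt8a, 13 of 18 genes of galactolipid and sphingolipid metabolism were higher and 5 lower with a median of 0.04, and 0 had an unadjusted p under 0.05 in edgeR. Among those lowest in p were Galc, which breaks down galactosylceramide, at 0.16 (SE 0.08), Smpd1, the acid sphingomyelinase, at -0.10 (SE 0.06) and the ceramide synthase gene Cers2 at 0.07 (SE 0.06). Among 12 genes of the nodes and paranodes, where myelin meets the bare axon, 6 were higher and 6 lower with a median of -0.001. Sptbn4, the node spectrin, was at -0.14 (SE 0.06; edgeR unadjusted p = 0.0354), Cntn1 at 0.09, Cntn2 at -0.09 and Cntnap1 at -0.08, and 0 passed after adjustment.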

How the data were processed

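The authors deposited a table of expected counts per gene for 10 libraries, without scaling. The tools named in the submitters' processing notes are edgeR 4.2.0, RSEM and STAR, and the build is mm10. The sources used here do not give the annotation release, strand setting or read filters. Fractional values made up 5.04%, and rounding to whole numbers preceded the tests.

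Genes were kept by edgeR's filterByExpr (version 4.0.16 under R 4.3.3; minimum count 10, minimum total 15), and counts were scaled with TMM factors and tested for paclitaxel against vehicle by the robust quasi-likelihood test without covariates, with Benjamini-Hochberg adjustment over 13287 genes at 0.05, two-sided. Log2 CPM used a prior count of 2, and intervals are at 95%. Exact permutation tests ran over all 252 assignments of the libraries to groups. The test was checked on simulated counts. Alternatives were other scalings, filters and tests (DESeq2 1.42.0, limma 3.58.1), the replicate block and leaving out each library; leaving out 2 libraries together and a loess correction for GC content and length were chosen after seeing the data. Lengths and GC came from GENCODE M21, for 99.7% of tested genes.

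The members and gene lists were chosen with earlier results of these data known. Named were all members, up to 4 genes of lowest p in a list, and the 10 most and 5 least like the members' mean; others are marked as named after seeing values. Some genes that the rule names are not reported here.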

Additional observations from a re-analysis of the deposited data

Results flagged for a closer look

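Paclitaxel replicate 3 lay apart from the other 4 libraries of its group for Mog, at 157 CPM against 207 to 224 CPM, and for Cnp, at 675 CPM against 945 to 1053 CPM. In each case the gap to the nearest library took a larger share of the whole range (0.744 for Mog and 0.713 for Cnp) than Dixon's critical value of 0.710 for 5 samples. Chance passes this value in about 1 of 20 groups. The comparison was made for each of the 9 members in both groups, so passes can arise by chance, and Cnp passed narrowly. It was not made over all genes, and this library was lowest for 20% of all tested genes. Mag and Ugt8a had their lowest value in the same library, with shares of 0.679 and 0.644, under that value.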

How the results depend on the processing

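No member passed an adjusted p of 0.05 under any of 22 alternatives, with a lowest adjusted p of 0.564, for Mal. Mag, Cldn11 and Mal kept their sign throughout. With each library left out in turn, log2 fold changes ran from -0.012 to 0.028 for Mbp, -0.00747 to 0.11 for Mog, -0.018 to 0.050 for Mobp, -0.044 to 0.10 for Cnp, -0.10 to 0.15 for Opalin and -0.10 to 0.14 for Ugt8a, and from -0.017 to 0.028 for Myrf and -0.042 to 0.069 for Olig2. The sign also turned for Cnp (-0.011) and Opalin (-0.030) in limma-voom, for Mobp (-0.021) and Ugt8a (0.063) with sample quality weights, for Opalin (-0.0014) after the GC and length correction, and for Mobp (-0.021) and Ugt8a (0.11) without paclitaxel replicate 3 and vehicle replicate 4 together. Libraries with the same replicate number deviated from their group means with correlations from -0.17 to 0.24 (mean 0.07), and those with different numbers from -0.27 to 0.18. Of 5 numbers 2 correlated best with their own. These values do not settle whether the numbers mark pairs, and they were not taken as pairs in the main test. With the replicate block Cnp was at -0.0077, and no member's call changed. The members' median ran from -0.012 to 0.076 with each library left out. The number of genes called over all genes was 0 with each library left out (0 to 0) and 1 in DESeq2, in edgeR's likelihood ratio test and with the replicate block: Klf4 in the first pair of tests and Fos with the block, neither a member. Genes at an unadjusted p under 0.05 numbered 806, and 515 without vehicle replicate 3, 1299 without vehicle replicate 1, and 508 without paclitaxel replicate 3 and vehicle replicate 4 together. The cause was not tested. Opalin, at 107 counts in paclitaxel replicate 3, is the member that depth limits most.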

Other observations

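Within galactolipid metabolism, paclitaxel replicate 3 had Ugt8a low together with Fa2h, which hydroxylates the fatty acids of myelin lipids (102 CPM against 147 to 169 CPM in the other 9 libraries), and Gal3st1 (18.9 CPM against 30.4 to 44.0 CPM). Of 18 genes of this metabolism 7 were lowest in that library and 3 highest, where 20% and 19.7% of all tested genes were. Genes of breakdown went both ways: Arsa, the sulfatidase, was at 28.4 CPM against 30.5 to 36.3 CPM and Smpd1 at 86.8 CPM against 98.0 to 112 CPM. Galc was at 50.3 CPM against 38.3 to 49.7 CPM, and Psap, the precursor of the sphingolipid activators, at 1904 CPM against 1791 to 1868 CPM. Ugcg, which adds glucose in place of galactose to ceramide, was also at its highest there, at 79.4 CPM against 59.2 to 70.0 CPM. These genes were singled out after their values were seen.

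Bcas1, a gene of newly myelinating oligodendrocytes, was at 459 CPM in the same library against 641 to 774 CPM in the other 9, and Gpr17, of cells on the way to myelination, at 22.5 CPM against 34.3 to 54.7 CPM, and C1ql1, Sox6 and Cacng4 were also lowest there, at 0.726-fold, 0.752-fold and 0.789-fold of the others. Vcan, Ptprz1 and Lhfpl3 were highest there, at 1.53-fold, 1.13-fold and 1.11-fold. Of 13 genes of precursors and newly formed cells 5 were thus lowest and 3 highest, where 20% and 19.7% of all tested genes were. These genes too were singled out after their values were seen.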
